A study of Mus musculus with 8 samples.

Results

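The data concern 9 genes of the T helper 17 (Th17) programme that were chosen by symbol: the cytokine genes Il17a, Il17f, Il22 and Csf2, the receptor genes Il23r, Il6ra and Il17ra, and the transcription factor genes Rora and Batf. All 9 were present among the 11354 genes of the deposited count table. The table held RNA-seq counts for 8 libraries of mouse CD4 T cells recovered from RAG-/- hosts after transfer. Such hosts lack lymphocytes with rearranged receptors but keep myeloid and innate lymphoid cells. In 4 libraries the labels give the transferred cells as Nlrp6-/- CD4 T cells (KO 1, KO 2, KO 4 and KO 5), and in 4 as Wild Type CD4 T cells (WT 1, WT 2, WT 4 and WT 5), the number being that of the host. The strain background of all samples is given as Black6, host age is not given in the sources used here, and equal numbers of cells of both kinds were transferred. The labels name host spleen as the source of the cells in some fields and colonic lamina propria in others, so the tissue is not stated in what follows.

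Th17 cells are helper T cells defined by interleukin 17A and 17F, which act through a shared receptor on epithelial and stromal cells to recruit neutrophils. They arise under TGF-beta and interleukin 6, and interleukin 23 maintains them. In the gut lining, interleukin 22 acts on the epithelium, while GM-CSF, the product of Csf2, acts on myeloid cells. Colitis caused by T cells transferred into lymphopenic hosts is a common setting in which this programme is studied.

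Totals ranged from 35198192 to 40310721 counts per library. Nlrp6, the gene the labels are about, went against them: it had 487, 329, 477 and 648 counts in KO 1, KO 2, KO 4 and KO 5, against 5, 3, 3 and 8 counts in WT 1, WT 2, WT 4 and WT 5. Directions are therefore those of libraries labelled knock-out or wild type, not of a genotype. All 12 T cell markers checked were in the table. They summed to 8076 to 8788 CPM (counts scaled to a common library size) in libraries labelled KO and 8557 to 9542 CPM in libraries labelled WT. Of these 12 markers, 2 fell and 0 rose in libraries labelled KO, beside 3.84% and 6.20% of all genes. Of 5 B cell markers, 0 were listed. Of 16 myeloid markers, 15 rose in libraries labelled KO, beside 6.20% of all genes. Their summed level was 307 to 974 CPM there against 51.7 to 91.0 CPM in libraries labelled WT (two-sided exact permutation p = 0.0286, the smallest that 4 against 4 libraries allow, adjusted over 5 lists p = 0.0476). The lists were chosen with earlier results of these data known, so this p-value is no independent test. Summed dendritic and class II markers were 459.5 to 1331 CPM in libraries labelled KO against 63.9 to 111 CPM in libraries labelled WT. Summed neutrophil markers were 29.5 to 65.1 CPM in libraries labelled KO against 12.7 to 21.3 CPM in libraries labelled WT. Summed epithelial markers overlapped (34.2 to 38.9 CPM and 29.2 to 44.2 CPM). The dendritic and class II sum rests on 7 of 10 listed markers, since Flt3, Xcr1 and Clec9a were not in the table. The neutrophil sum rests on 4 of 8, without Cxcr2, Ly6g, Retnlg and Mpo, and the epithelial sum on 5 of 6. Markers of gamma-delta T and innate lymphoid cells, which can also make interleukin 17A and interleukin 22, summed to 258 to 296 CPM in libraries labelled KO and 222 to 338 CPM in libraries labelled WT. That sum rests on 5 of 13 listed markers, since the constant-region genes Trdc, Tcrg-C1, Tcrg-C2 and Tcrg-C4 and the receptor gene Ncr1 were among those that the table did not list. In bulk RNA, fewer cells of a type and less RNA per cell cannot be told apart.

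The promoters of 3 genes are shown first because they hold letters that match part of the DNA element to which the Rora product binds. The motif AGGTCA, its half-site, was searched on both strands of the RefSeq promoters (GRCm38.p6, 250 bases before to 50 after a transcript start), which were found for 8 of the 9 genes and not for Il17ra. It was present in 3 of these 8 promoters, those of Il17a, Il17f and Il23r, and in 16.3% of all 32851 promoters in the table. In the lines that follow capitals mark AGGTCA or its reverse complement, read 5′ to 3′ along the strand of the gene. The Il17a window is chr1:20730655-20730954 on the plus strand, the Il17f window is chr1:20784221-20784520 on the minus strand and the Il23r window is chr6:67491806-67492105 on the minus strand.
Il17a: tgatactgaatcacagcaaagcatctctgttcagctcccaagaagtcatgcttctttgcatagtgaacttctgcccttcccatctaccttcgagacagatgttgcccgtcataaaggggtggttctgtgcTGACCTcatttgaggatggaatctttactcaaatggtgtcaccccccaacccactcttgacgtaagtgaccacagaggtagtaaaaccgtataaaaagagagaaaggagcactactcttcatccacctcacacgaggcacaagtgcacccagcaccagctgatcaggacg
Il17f: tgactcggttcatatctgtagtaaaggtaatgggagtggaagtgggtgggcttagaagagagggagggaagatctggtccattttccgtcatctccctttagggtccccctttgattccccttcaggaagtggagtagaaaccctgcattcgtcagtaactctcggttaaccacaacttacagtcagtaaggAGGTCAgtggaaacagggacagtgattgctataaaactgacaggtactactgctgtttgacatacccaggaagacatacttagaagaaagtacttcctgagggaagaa
Il23r: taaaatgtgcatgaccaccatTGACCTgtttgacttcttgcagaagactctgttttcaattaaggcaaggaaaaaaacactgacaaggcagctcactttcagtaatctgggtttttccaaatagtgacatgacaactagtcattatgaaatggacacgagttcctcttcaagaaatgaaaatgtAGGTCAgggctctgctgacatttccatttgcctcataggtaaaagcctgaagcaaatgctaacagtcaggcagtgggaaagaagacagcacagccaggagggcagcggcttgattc
Positions are counted from the transcript start of each promoter, which for Il17f lies inside the span annotated for the gene. The match to AGGTCA begins at position -120 in Il17a, at -58 in Il17f, and at -229 and -66 in Il23r. The bases beside it were not part of the search. TGANTCA, the AP-1 motif that Batf complexes also bind, was found in the Il17a window alone among the 8 and in 7.81% of all promoters. The STAT motif TTCNNNGAA was in 0 of the 8 windows and in 8.30% of all promoters. The TATA motif TATAAA was in the windows of Il17a, Il17f and Il22 and in 13.6% of all promoters. It began at -31 in Il17a and -29 in Il17f, but much further from the start, at -170, in Il22. These matches do not overlap one another, describe letters in the windows and show no binding.

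Whether the Th17 programme differed with the label was asked of each gene in edgeR's quasi-likelihood test, with p-values adjusted over all 11354 genes and a call made at an adjusted p below 0.05. Of the 9 genes, Il6ra rose and Batf fell in libraries labelled KO, and the other 7 did not pass. These 2 of 9 (22.2%) stand beside 10% of all genes called, 6.20% higher and 3.84% lower. Il17a, Il17f and Il22 gave the widest intervals, and libraries of the same label differed several-fold in them. The median log2 fold change was 0.07 over the 9 genes and -0.0026 over all genes. The median absolute log2 fold change was 0.17 over the 9 genes and 0.09 over all genes.

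**Figure D1:**
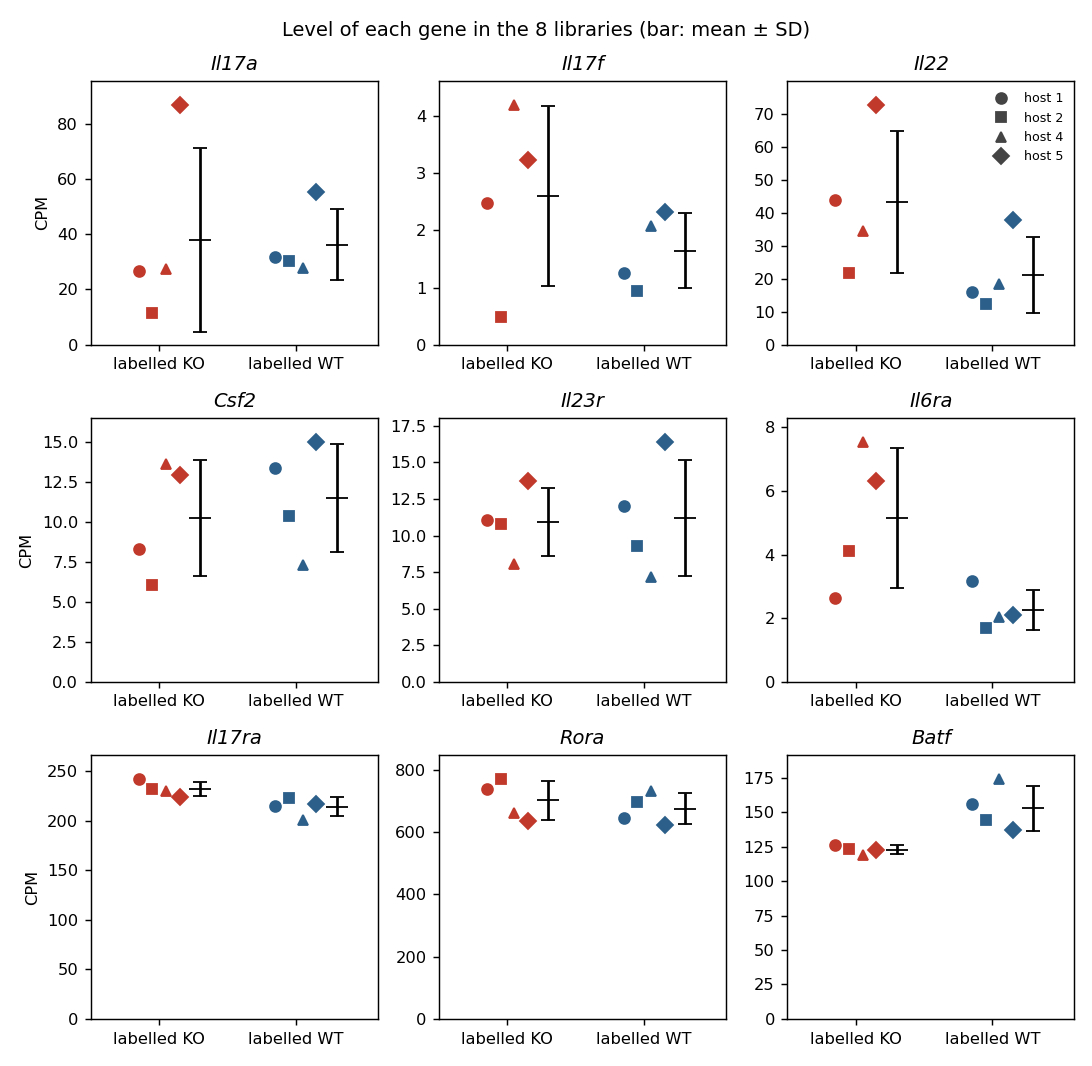
Level in CPM of each of the 9 genes in the 4 libraries labelled KO and the 4 labelled WT, with the host number as the marker shape and the mean ± SD beside the points. The cytokine genes spread widely within each label, whereas Batf lies between 119 and 127 CPM in all libraries labelled KO and at 137 CPM or above in all labelled WT.

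Il17a, which encodes the signature cytokine of the lineage, was at 26.7, 11.4, 27.4 and 86.8 CPM in KO 1, KO 2, KO 4 and KO 5, against 31.9, 30.2, 27.6 and 55.4 CPM in WT 1, WT 2, WT 4 and WT 5. The libraries of host 5 were the highest under both labels, KO 2 was the lowest of all, and the labels overlapped. The means were 38.1 ± 33.3 CPM in libraries labelled KO and 36.3 ± 12.9 CPM in libraries labelled WT (SD, n = 4 each). The log2 fold change of KO over WT was 0.07 ± 0.52 (SE, edgeR adjusted p = 0.963), with a 95% interval from -1.096 to 1.24, so that changes of 2-fold in either direction lie within it. The direction depended on single libraries, since the log2 fold change was -0.73 without KO 5 (edgeR adjusted p = 0.245), -0.01 without WT 2 and -0.04 without WT 4. Library names carry a code of unstated meaning that is 8 for KO 4 and KO 5 and 7 for all others, and among libraries of code 7 the value was -0.93 (edgeR adjusted p = 0.207). The highest library was 7.63 times the lowest under the KO label and 2.01 times under the WT label. Counting error was about 2.63% of the mean count, far below this spread.

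Il17f, a close relative of Il17a whose product pairs with it, was at 2.48, 0.484, 4.19 and 3.23 CPM in KO 1, KO 2, KO 4 and KO 5, against 1.25, 0.943, 2.07 and 2.32 CPM in WT 1, WT 2, WT 4 and WT 5. In all, 3 libraries labelled KO lay above all labelled WT and KO 2 lay below all of them. The low value of KO 2 rests on 19 counts (95% exact Poisson interval 11.4 to 29.7). The log2 fold change was 0.65 ± 0.53 (edgeR adjusted p = 0.532, 95% interval -0.54 to 1.85), and among libraries of code 7 it was -0.15. The gene lies next to Il17a on chromosome 1 (Il17a from 20730905 to 20734496, Il17f from 20777146 to 20785274, GRCm38), with 0 RefSeq genes in the 42649 bases between them, and the transcripts share 0 stretches of the read length of 81 bases. Mcm3, a DNA replication gene on the far side of Il17f, was at 164 ± 32.3 CPM in libraries labelled KO and 169 ± 14.4 CPM in libraries labelled WT.

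The proportion of the pair changed between libraries. Il17f made up 8.51% (95% Wilson interval 7.02 to 10.3), 4.08% (2.63 to 6.28), 13.3% (11.4 to 15.4) and 3.58% (3.02 to 4.24) of the reads of both genes in KO 1, KO 2, KO 4 and KO 5. In WT 1, WT 2, WT 4 and WT 5 it made up 3.77% (2.88 to 4.92), 3.03% (2.20 to 4.14), 6.99% (5.67 to 8.59) and 4.03% (3.28 to 4.93). The share was highest in the library of host 4 under both labels, and the labels overlapped (7.36 ± 4.52% in libraries labelled KO and 4.45 ± 1.74% in libraries labelled WT, SD, n = 4 each). These intervals cover counting error only, since the reads carry no molecular identifiers.

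Il22 (chromosome 10, 118204584 to 118210047), whose product acts on epithelial cells, was at 43.9, 21.8, 34.6 and 72.7 CPM in KO 1, KO 2, KO 4 and KO 5, against 16.1, 12.3, 18.3 and 37.8 CPM in WT 1, WT 2, WT 4 and WT 5. All libraries labelled KO lay above 3 of the 4 labelled WT, and WT 5 fell among them. The means were 43.2 ± 21.6 CPM in libraries labelled KO and 21.1 ± 11.4 CPM in libraries labelled WT (SD, n = 4 each). The log2 fold change of 1.04 ± 0.41 had a 95% interval from 0.11 to 1.96 and did not pass (edgeR adjusted p = 0.164). Without WT 5 it was 1.475 and passed (edgeR adjusted p = 0.0417), without KO 5 it was 0.66 (edgeR adjusted p = 0.350), and among libraries of code 7 it was 0.64 (edgeR adjusted p = 0.466). Between libraries of the same host number, Il22 in the library labelled KO was 2.73, 1.77, 1.89 and 1.92 times that in the library labelled WT for hosts 1, 2, 4 and 5. The call depends on whether these are taken as pairs: with the host number as a block Il22 passed (1.03, edgeR adjusted p = 0.00568). The summed level of the 5 measured gamma-delta T and innate lymphoid markers overlapped between the labels. The gamma-delta constant-region genes and Ncr1 are not among the 5, so innate sources of Il22 cannot be judged from this sum. The part of such cells in Il22 was not tested.

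Iltifb, a duplicate of Il22 that C57BL/6 mice carry on chromosome 10 (118289629 to 118295038), followed Il22 in every library. It was at 6.42, 3.56, 5.31 and 11.4 CPM in KO 1, KO 2, KO 4 and KO 5, against 2.50, 2.06, 2.78 and 6.11 CPM in WT 1, WT 2, WT 4 and WT 5. Its share of the reads of both copies stayed between 12.8% and 14.1% in libraries labelled KO and between 13.2% and 14.3% in libraries labelled WT. Of the 1030 stretches of 81 bases in the Il22 transcript (GENCODE M21), 282 (27.4%) occur unchanged in the Iltifb transcript. The sources used here do not give how reads that match both copies were counted, so the split between the copies is uncertain. Iltifb did not pass (0.99 ± 0.42, edgeR adjusted p = 0.188), but did with the host number as a block (1.00, edgeR adjusted p = 0.00909). Summed over both, the level was 49.9 ± 24.998 CPM in libraries labelled KO and 24.5 ± 13.2 CPM in libraries labelled WT (SD, n = 4 each).

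The ratio of Il22 to Il17a in the same library, which removes any scaling between libraries, separated the labels, whereas Il22 alone did not. The highest ratio was that of KO 2, where Il17a was the lowest of all libraries at 11.4 CPM. There were 1.64, 1.92, 1.26 and 0.837 Il22 reads per Il17a read in KO 1, KO 2, KO 4 and KO 5, against 0.504, 0.408, 0.662 and 0.683 in WT 1, WT 2, WT 4 and WT 5. The lowest library labelled KO was KO 5 and the highest labelled WT was WT 5, and the labels did not overlap. This ratio was chosen after the values of both genes were seen and is given as a description without a test. The transcripts have similar lengths in the table (1087 bases for Il22 and 1171 bases for Il17a).

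**Figure D2:**
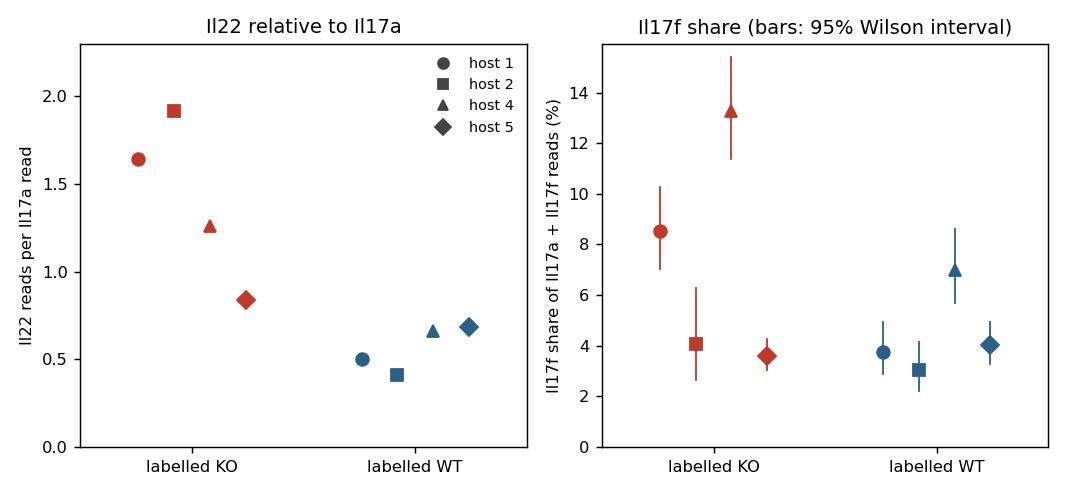
Left, Il22 reads per Il17a read in each library, from 0.837 to 1.92 in libraries labelled KO and from 0.408 to 0.683 in libraries labelled WT. Right, the share of Il17f in the summed reads of Il17a and Il17f, with 95% Wilson intervals, where the labels overlap and the libraries of host 4 are the highest of each label.

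Csf2 (chromosome 11, 54247270 to 54249899), the gene of the myeloid growth factor GM-CSF, was at 8.30, 6.09, 13.6 and 13.0 CPM in KO 1, KO 2, KO 4 and KO 5, against 13.4, 10.4, 7.29 and 15.01 CPM in WT 1, WT 2, WT 4 and WT 5. The labels overlapped almost wholly, and the log2 fold change was -0.17 ± 0.29 (edgeR adjusted p = 0.796, 95% interval -0.81 to 0.47). Among libraries of code 7 it was -0.68 (edgeR adjusted p = 0.213), with KO 4 and KO 5, the highest labelled KO, left out. The genes of its receptor chains, which myeloid cells carry, rose in libraries labelled KO without overlap. Csf2rb was at 27.8 ± 14.4 CPM in libraries labelled KO and 2.41 ± 0.558 CPM in libraries labelled WT, and its log2 fold change was 3.52 ± 0.36 (edgeR adjusted p = 0.000415). Csf2rb2 (3.27) and Csf2ra (2.20) rose as well, each with KO 4 the highest library, as in the summed myeloid markers. Csf2rb and Csf2rb2 are near-identical in parts, which makes the split of reads between them uncertain, and the part of myeloid RNA in these rises was not tested.

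Among the receptor genes, Il23r (chromosome 6, 67422932 to 67491855), which encodes the specific chain of the interleukin 23 receptor, was at 11.05, 10.8, 8.07 and 13.7 CPM in KO 1, KO 2, KO 4 and KO 5, against 12.02, 9.27, 7.18 and 16.4 CPM in WT 1, WT 2, WT 4 and WT 5. Host 4 gave the lowest and host 5 the highest library under both labels. The labels overlapped, and the log2 fold change was -0.04 ± 0.25 (edgeR adjusted p = 0.957, 95% interval -0.59 to 0.51), and the same -0.04 among libraries of code 7.

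Il6ra (chromosome 3, 89869324 to 89913196), which encodes the ligand-binding chain of the interleukin 6 receptor and is also known from myeloid cells, was at 2.64, 4.10, 7.54 and 6.33 CPM in KO 1, KO 2, KO 4 and KO 5, against 3.16, 1.71, 2.05 and 2.11 CPM in WT 1, WT 2, WT 4 and WT 5. In all, 3 libraries labelled KO lay above all labelled WT, and KO 1 lay below WT 1. The log2 fold change was 1.19 ± 0.33 (edgeR adjusted p = 0.0498), just past the threshold. It passed in 1 of 8 fits with a library left out, the one without KO 1 (1.40, edgeR adjusted p = 0.0119), and its adjusted p reached 0.127 when WT 2 was left out. Among libraries of code 7 it was 0.58 (edgeR adjusted p = 0.308). The summed myeloid markers were 307, 544, 974 and 710 CPM in KO 1, KO 2, KO 4 and KO 5, which is the same order as that of Il6ra in these libraries. They were 91.0, 72.2, 51.7 and 69.5 CPM in WT 1, WT 2, WT 4 and WT 5, where the order of Il6ra differed. With the host number as a block it did not pass (1.13, edgeR adjusted p = 0.121). The part of myeloid RNA in this rise was not tested.

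**Figure D3:**
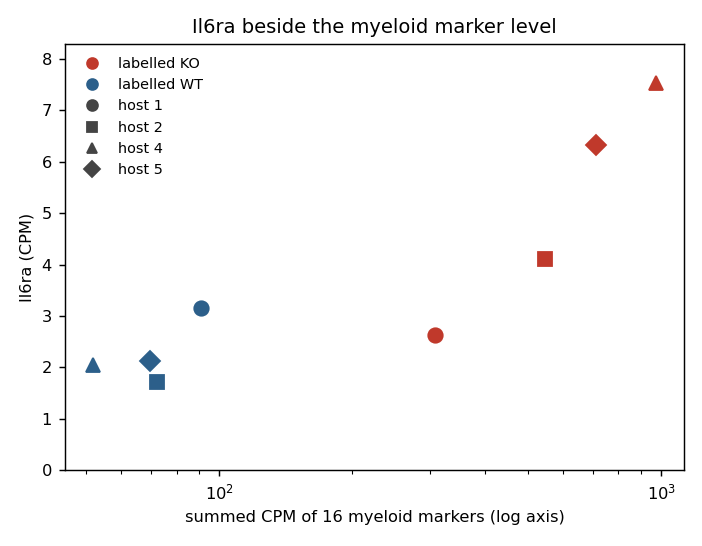
Il6ra level in CPM against the summed CPM of 16 myeloid markers (log axis) in each library, labelled KO and labelled WT, with the host number as the marker shape. KO 4 is highest on both axes at 7.54 CPM of Il6ra and 974 CPM of markers, whereas KO 1 has more marker signal than WT 1 but less Il6ra.

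Il17ra (chromosome 6, 120463181 to 120483731), the receptor chain that interleukins 17A and 17F share, was at 242, 232, 230.0 and 224 CPM in KO 1, KO 2, KO 4 and KO 5, against 215, 223, 200.4 and 216 CPM in WT 1, WT 2, WT 4 and WT 5. The labels did not overlap, as for Batf and for 16% of all genes, but the difference was small. Its log2 fold change was 0.12 ± 0.04 (95% interval 0.02 to 0.22, edgeR adjusted p = 0.140), and 0.15 among libraries of code 7. It varied less within the labels than most genes, with a pooled SD of log2 CPM of 0.06 against a median of 0.11 over all genes.

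Rora (chromosome 9, 68653404 to 69388246), a nuclear receptor that promotes expression of the Th17 genes, was at 740.4, 770.3, 663 and 637 CPM in KO 1, KO 2, KO 4 and KO 5, against 647, 697, 734 and 623 CPM in WT 1, WT 2, WT 4 and WT 5. The labels overlapped, and the 95% interval of the log2 fold change reached from -0.11 to 0.22 around 0.06 (edgeR adjusted p = 0.724). Among libraries of code 7 it was 0.16 (edgeR adjusted p = 0.241).

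Batf (chromosome 12, 85686720 to 85709087), an AP-1 family factor required for Th17 differentiation, fell. It was at 127, 124, 119 and 123 CPM in KO 1, KO 2, KO 4 and KO 5, against 156, 144, 174 and 137 CPM in WT 1, WT 2, WT 4 and WT 5. The labels did not overlap, and the spread was narrower in libraries labelled KO (123 ± 3.26 CPM) than in those labelled WT (153 ± 16.1 CPM, SD, n = 4 each). The log2 fold change was -0.31 ± 0.07 (edgeR adjusted p = 0.0191), a level 0.804 times that of the WT label with an interval of 0.722 to 0.896. It passed in 7 of 8 fits with a library left out and not without WT 1 (-0.31, edgeR adjusted p = 0.0578). Among libraries of code 7 it was -0.29 (edgeR adjusted p = 0.107).

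**Figure D4:**
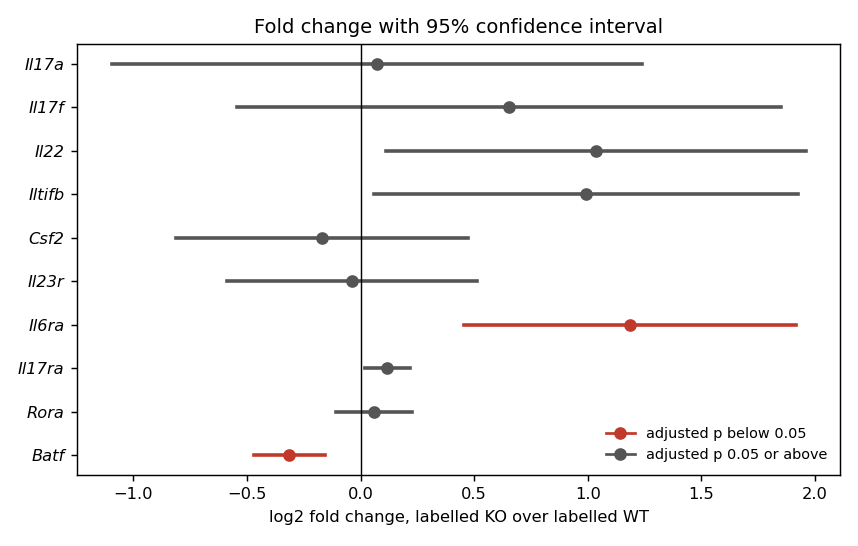
Log2 fold change of libraries labelled KO over libraries labelled WT with its 95% confidence interval, for the 9 genes and for Iltifb, the duplicate of Il22. Il6ra (1.19) and Batf (-0.31) passed at an adjusted p below 0.05, the intervals of Il22 (0.11 to 1.96) and Il17ra (0.02 to 0.22) lie above 0 without passing, and those of Il17a, Il17f and Csf2 span 0 widely.

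Per kilobase of gene length, the scale on which genes can be ranked, Batf was the highest of the 9 under both labels at 136 ± 3.61 CPM per kilobase in libraries labelled KO and 169 ± 17.9 CPM per kilobase in libraries labelled WT. Il17ra (58.4 and 53.8 in libraries labelled KO and WT) and Rora (56.6 and 54.4) followed and overlapped each other under both labels. Il22 ranked above Il17a in libraries labelled KO (39.8 ± 19.9 and 32.5 ± 28.5) and below it in libraries labelled WT (19.4 ± 10.5 and 31.0 ± 10.99), with overlap under each label. Csf2 (9.91 and 11.1), Il23r (4.38 and 4.51), Il17f (2.13 and 1.35) and Il6ra (1.54 and 0.675) completed the order under both labels, Il17f and Il6ra again overlapping. In libraries labelled KO, Rora also overlapped Il22, Il17a overlapped Csf2 and Il23r overlapped Il17f. In libraries labelled WT, Il22 overlapped Csf2. Overlap was checked only between genes of neighbouring rank.

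The 4 cytokine genes and the receptor genes Il6ra and Il23r were also the most variable of the 9. The pooled within-label SD of log2 CPM was 1.04 for Il17f, 0.91 for Il17a, 0.71 for Il22, 0.54 for Il6ra, 0.51 for Csf2 and 0.42 for Il23r. These lie at the 99.9th, 99.7th, 98.9th, 96.2nd, 95.3rd and 92.9th percentile of all genes, whereas Rora and Batf lie at the 54.2nd and 50.3rd and Il17ra at the 12.8th.

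Host 5 gave the highest library under both labels for 3 of the 9 genes, Il17a, Il22 and Il23r, as it did for 981 of all genes (8.64%). Hosts 1, 2 and 4 did so for 0 of the 9. The high Il17a level in WT 5 was already known when the genes were chosen. The place of Il17a in the count for host 5 is therefore no separate result. Of the other pathway genes measured, Ccr6, Ccl20, Il1r1 and Ahr were among those highest in host 5 under both labels. Host 4 did the same for 8.59% of all genes and for the pathway genes Il21r, Stat3, Stat4, Jak1, Jak2, Il6, Usp25, Csf2ra and Il10rb. Ccr6, the homing receptor of Th17 cells, was at 6.44, 4.05, 3.46 and 12.9 CPM in KO 1, KO 2, KO 4 and KO 5, against 5.09, 3.13, 4.65 and 11.3 CPM in WT 1, WT 2, WT 4 and WT 5. Ccr6, Ccl20, Il1r1 and Ahr were picked out with their values in view. The labels give same-numbered libraries of both labels the same host number but do not say whether they came from 1 mouse.

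Genes whose profile over the 8 libraries was most like that of a variable member were taken by the smallest mean absolute difference in log2 CPM, after each gene was centred on its own mean, among 11247 genes. For Il17a they were Dnajc6 (0.28), B3galt2 (0.30) and Adcy5 (0.33), and for Il17f Cxcl3 (0.33), Ifit3b (0.44) and Cpe (0.46). For Il22 they were its duplicate Iltifb (0.05), Pi16 (0.22) and Dab2ip (0.28), and for Csf2 Mpp2 (0.14), Hhat (0.17) and Hbegf (0.17). For Il23r they were D830031N03Rik (0.10), Slc17a9 (0.14) and Tagln (0.14), and for Il6ra Ctsl (0.13), Osm (0.15) and Lat2 (0.16). Of these, the lysosomal protease gene Ctsl (1.41 ± 0.23, edgeR adjusted p = 0.00360) and the cytokine gene Osm (1.09 ± 0.23, edgeR adjusted p = 0.0161) rose in libraries labelled KO, and the others did not pass. Both were picked for likeness to Il6ra over the same 8 libraries. Their rise was thus largely set by that choice and adds no separate result.

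Among 59 measured genes of the wider pathway lists, 7 rose and 6 fell in libraries labelled KO, and 4 and 6 of 56 without the 3 GM-CSF receptor genes. Of all genes, 6.20% rose and 3.84% fell, and these shares stand beside the count of each list below as well. The lists were chosen with earlier results of these data known. Of 5 further helper cytokine genes, Il21 and Il10 fell and 0 rose, and the Th1 cytokine gene Ifng (853 ± 191 CPM in libraries labelled KO and 817 ± 40.0 CPM in libraries labelled WT) did not pass. Il21, a cytokine that Th17 and follicular helper cells make, was at 48.0 ± 8.35 CPM in libraries labelled KO and 121 ± 26.4 CPM in libraries labelled WT (-1.33 ± 0.17, edgeR adjusted p = 0.000997). Il10, an anti-inflammatory cytokine, was at 10.3, 6.34, 40.8 and 9.86 CPM in KO 1, KO 2, KO 4 and KO 5, against 133, 92.1, 68.5 and 80.8 CPM in WT 1, WT 2, WT 4 and WT 5 (-2.49 ± 0.53, edgeR adjusted p = 0.0158). Tnf, an inflammatory cytokine gene, was at 132 ± 17.8 CPM in libraries labelled KO and 121 ± 10.2 CPM in libraries labelled WT and did not pass. The median log2 fold change over the 59 genes was 0.04.

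Of 13 further receptor genes, Il27ra fell and 0 rose. It encodes the receptor of interleukin 27, a cytokine that restrains Th17 cells, and was at 304 ± 13.0 CPM in libraries labelled KO and 362 ± 5.84 CPM in libraries labelled WT (log2 fold change -0.25 ± 0.04, edgeR adjusted p = 0.00378). The interleukin 2 and 21 receptor genes Il2rb (-0.16) and Il21r (0.07), the most abundant of the list, did not pass.

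Of 19 further transcription factor genes, 2 rose and 2 fell. Runx1, a Runt-family factor of T cells, was at 159 ± 8.83 CPM in libraries labelled KO and 199 ± 14.4 CPM in libraries labelled WT (-0.33 ± 0.06, edgeR adjusted p = 0.00767). Gfi1, a repressor that opposes Th17 differentiation, was at 81.5 ± 1.55 CPM in libraries labelled KO and 98.1 ± 6.22 CPM in libraries labelled WT (-0.27 ± 0.05, edgeR adjusted p = 0.00757). Nfkbiz, which encodes a co-activator of Il17a, rose to 817 ± 98.8 CPM in libraries labelled KO, against 636 ± 60.2 CPM in libraries labelled WT (0.36 ± 0.09, edgeR adjusted p = 0.0392). Batf3, a relative of Batf known from dendritic cells, was at 2.39 ± 1.14 CPM in libraries labelled KO and 0.790 ± 0.382 CPM in libraries labelled WT (1.58 ± 0.43, edgeR adjusted p = 0.0479). With a library left out, Nfkbiz passed in 2 and Batf3 in 1 of 8 fits, with adjusted p up to 0.105 and 0.127. Among libraries of code 7 Runx1 (-0.29, edgeR adjusted p = 0.0606), Nfkbiz (0.29) and Batf3 (1.14) did not pass. Bhlhe40 (-0.05) and Junb (0.05), the most abundant of the list, did not pass.

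In the signalling lists, the interleukin 6 gene Il6 rose and the phosphatase gene Ptpn11 fell. Il6 was at 1.14, 1.095, 2.82 and 1.21 CPM in KO 1, KO 2, KO 4 and KO 5, against 0.196, 0.255, 0.379 and 0.261 CPM in WT 1, WT 2, WT 4 and WT 5 (log2 fold change 2.50 ± 0.40, edgeR adjusted p = 0.00335). Ptpn11 was at 146 ± 6.61 CPM in libraries labelled KO and 184 ± 11.1 CPM in libraries labelled WT (-0.33 ± 0.05, edgeR adjusted p = 0.00304). The kinase gene Jak1 (0.08) and Stat3 (-0.07), the factor that interleukins 6 and 23 activate, did not pass. Downstream of the interleukin 17 receptor, Traf6, an adaptor ubiquitin ligase, rose to 93.1 ± 4.97 CPM in libraries labelled KO, against 80.7 ± 2.34 CPM in libraries labelled WT (0.21 ± 0.05, edgeR adjusted p = 0.0224), and passed in 5 of 8 fits with a library left out, but not among libraries of code 7 (0.19). Tnfaip3 (0.35) and Tab2 (0.04) did not pass, nor did Il10rb (0.04), which encodes the shared chain of the interleukin 22 receptor.

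**Figure D5:**
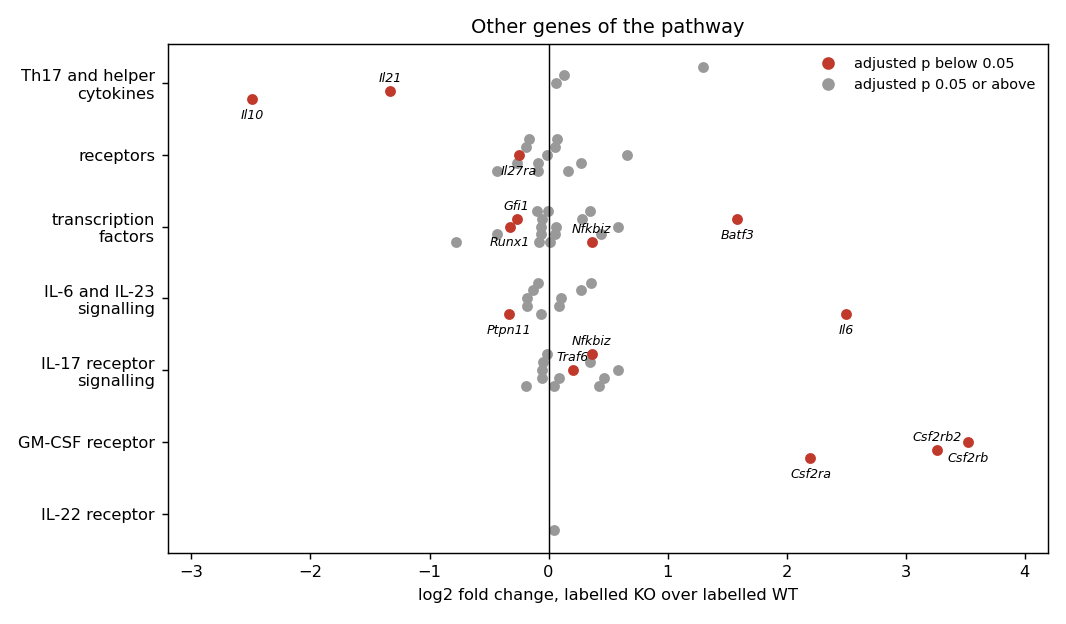
Log2 fold change of libraries labelled KO over libraries labelled WT for the 59 other measured genes of the pathway, by list, with the genes that passed at an adjusted p below 0.05 named. The 3 GM-CSF receptor genes and Il6 lie above 2, Il10 and Il21 lie below -1, and most transcription factor and signalling genes lie near 0.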

How the data were processed

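Poly(A) RNA of transferred CD4 T cells went into stranded TruSeq libraries that were sequenced as single reads of 81 bases, per the labels' protocols. Reads were aligned with STAR to mm10, per the submitters' processing notes. How reads were assigned to genes, with which gene models and strand, is not given in the sources used here. The values the authors deposited are raw counts per gene (whole numbers, with unequal totals). Low-count genes are absent from the table, since the lowest fourth-highest CPM of any gene was 0.994. Columns were matched to samples by their descriptions. Libraries of a label came from differently numbered hosts, so the p-values rest on the spread between hosts. Whether the transferred cells came from separate donors is not stated.

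The counts were scaled by TMM factors in edgeR and tested with glmQLFit and glmQLFTest on the label alone, Benjamini-Hochberg adjusted over all genes. filterByExpr kept all 11354 genes. Standard errors came from dividing the size of the fitted log2 difference by the root of F. Log2 CPM had a prior count of 2. Marker sums were compared by two-sided exact permutation over 70 assignments. The test was checked on simulated data in which all genes had the same spread. That check does not cover genes as variable as Il17a, Il17f, Il22 and Il6ra. Positions and promoters are RefSeq's of GRCm38.p6, the assembly that mm10 names.

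Software comprised edgeR 4.0.16, DESeq2 1.42.0 and limma 3.58.1 under R 4.3.3, with numpy 2.4.6, pandas 2.3.3, matplotlib 3.10.9 and scipy 1.17.1 under Python 3.11.15. Named genes were Nlrp6, the 9 members, the called genes and the 2 most abundant uncalled genes of each pathway list, and the 3 most similar profiles per variable member. Ccr6, Ccl20, Il1r1, Ahr, Mcm3, Mdm1 and Il12rb2 fall outside that rule, and the values of 1 listed gene are not reported here. Members and lists were chosen with earlier results of these data known. Alternatives were other scaling factors and filters, DESeq2, limma-voom, the library code, the host number as a block, and left-out libraries.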

Additional observations from a re-analysis of the deposited data

Results flagged for a closer look

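In 82 groups of 4 libraries (each gene or marker sum under each label), the gap of the most extreme library to its nearest neighbour was set against the range of the group, with Dixon's 95% critical value for 4 values. Chance alone flags about 1 in 20 such groups, and 3 of 82 were past the value. Il17a in libraries labelled WT was one, where WT 5 had 55.4 CPM while WT 1, WT 2 and WT 4 lay at 27.6 to 31.9 CPM (gap 0.845 of the range), a spread that was already known when the genes were chosen. KO 4 had 40.8 CPM of Il10 while KO 1, KO 2 and KO 5 lay at 6.34 to 10.3 CPM (0.885). KO 4 also had 2.82 CPM of Il6 while KO 1, KO 2 and KO 5 lay at 1.095 to 1.21 CPM (0.933). KO 4 was the library with the highest summed myeloid markers, 974 CPM. The part of myeloid RNA in these levels was not tested.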

How the results depend on the processing

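Of 178 repeats over the 9 genes, 139 kept direction and side of the threshold, 17 lost and 5 gained a call and 17 turned direction. For named pathway genes the numbers were 426 of 476, 31, 5 and 14. The causes were not tested, and none of the values that turned had passed. Among the 8490 genes of at least 10 CPM, 312 genes rose and 266 fell. Of the 9 genes 7 were kept and 0 were higher, and of the pathway genes 52 were kept and 3 were higher. Il17f, Il6ra and Iltifb were dropped by this filter, as were the pathway genes Csf2ra, Csf2rb2, Il6 and Batf3. Csf2rb, Nfkbiz and Traf6 were kept and still passed. DESeq2 called 11 pathway genes higher. RLE factors and limma-voom called 0 of the 9 higher (Il6ra adjusted p 0.0501 and 0.114), and limma-voom turned Il17a (-0.40), Il23r (0.087) and Ifng (-0.037). With the library code as a term 249 genes fell, 4 pathway genes rose and 0 of the 9 were called in either direction, and Il17a (-0.93), Il17f (-0.15), Ifng (-0.059) and Il10rb (-0.042) turned.

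Repeats added after seeing the data left out KO 4 and KO 5 (0 of the 9 called, Il17a -0.93, Il17f -0.15, Ifng -0.060, Il10rb -0.042) or KO 5 and WT 5 (Il22 passed at 1.102, adjusted p 0.0465, and Il10 did not, adjusted p 0.0756, with Il17a at -0.46, Il23r at 0.070 and Bhlhe40 at 0.0037). Without 1 library, 516 to 709 genes rose and 276 to 509 fell, of the 9 genes 0 to 1 rose and 0 to 1 fell, and 4 to 7 pathway genes rose and 6 to 11 fell. Log2 fold changes then ranged from -0.73 to 0.37 for Il17a, -0.21 to 0.20 for Il23r, -0.35 to 0.011 for Csf2, -0.10 to 0.14 for Ifng, -0.026 to 0.15 for Il21r, -0.12 to 0.040 for Bhlhe40, -0.046 to 0.12 for Junb and -0.022 to 0.083 for Il10rb. Differences in summed markers ranged from 449 to 672 CPM for myeloid, 644 to 934 CPM for dendritic and class II, 27.0 to 38.8 CPM for neutrophil, -22.0 to 16.7 CPM for gamma-delta T and innate lymphoid and -1.17 to 3.83 CPM for epithelial markers, where 4 against 3 libraries allow no p below 0.0571.

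Deviations of same-numbered libraries from their label means correlated at -0.06, 0.18, -0.14 and 0.26 for hosts 1, 2, 4 and 5. In all, 3 of 8 libraries correlated best with their own number. Correlations over all genes cannot decide whether the numbers mark pairs. The main test did not pair the libraries. With the host number as a block 1020 genes were called, 896 of them among the 1140. Il22 then passed (1.03, edgeR adjusted p = 0.00568), Il6ra did not (1.13, edgeR adjusted p = 0.121), and Il17a was at -0.23. In blocked fits added later, DESeq2 called 2 of the 9 genes higher and 10 pathway genes lower (Il17a -0.25), and limma-voom called 12 pathway genes lower (Il17a -0.28, Ifng -0.073, Junb -0.043).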

Other observations

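Genes beside the cytokine and receptor loci were looked up after the values of the 9 genes were known. Mdm1, the measured gene before Il22, was at 13.6 ± 1.95 CPM in libraries labelled KO and 14.9 ± 2.62 CPM in libraries labelled WT (SD, n = 4 each, log2 fold change -0.12, edgeR adjusted p = 0.675). Il12rb2, a chain of the interleukin 12 receptor that lies beside Il23r, was at 155 ± 29.9 CPM in libraries labelled KO and 127 ± 11.9 CPM in libraries labelled WT (0.29, edgeR adjusted p = 0.230). Ccl20, which encodes the ligand of the receptor that Ccr6 encodes, was at 1.81, 0.611, 2.35 and 7.54 CPM in KO 1, KO 2, KO 4 and KO 5, against 0.661, 0.943, 0.987 and 2.43 CPM in WT 1, WT 2, WT 4 and WT 5. KO 5 was the highest library and the labels overlapped (1.30 ± 0.69, edgeR adjusted p = 0.304).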
